A study of Mus musculus with 30 samples.

Results

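The nuclear-encoded respiratory chain and ATP synthase genes were followed across sorted mouse islet cells as the rows of the expression table whose symbols begin with Ndufa, Ndufb, Ndufc, Ndufs, Ndufv, Uqcr, Cox4, Cox5, Cox6, Cox7, Cox8 or Atp5 and hold no hyphen. This rule gave 84 of 17775 genes, and 82 of them passed the filter on low values. By complex they were 36 subunits of complex I, 7 assembly factors of complex I (Ndufaf1 to Ndufaf7), 8 subunits of complex III, 15 genes of complex IV, 16 genes of ATP synthase, and Atp5s and Atp5sl, which carry the name but are not subunits of the enzyme. The complex IV genes include Ndufa4, first described in complex I and now assigned to cytochrome c oxidase, and Cox7a2l, which encodes a factor that joins complexes III and IV into supercomplexes. Cox6b2 and Cox7a1 were the 2 genes below the filter. Atp5l2 is annotated as the pseudogene Atp5l2-ps and is counted with the ATP synthase genes because its symbol here holds no hyphen. Reads may have been split between it and Atp5l, so its values are uncertain.

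Bulk RNA-seq of cells sorted from islets by fluorescence gave 30 libraries in 5 groups. The alpha Pdx1 DT group (n = 6) held alpha-cells from mice that carried CAGPdx1, R26YFP, RIP-DTR, TetO-Cre and Glucagon-rtTA, given diphtheria toxin at 2 months of age and sampled 30 days later. The alpha Pdx1 group (n = 5) held alpha-cells from mice of 3 months with CAG-Pdx1, R26YFP, TetO-Cre and Glucagon-rtTA, without the toxin. The alpha DT group (n = 4) came from Glucagon-Venus; RIP-DTR mice with the same toxin schedule, the beta group (n = 7) from Insulin-mCherry mice of 3 months, and the alpha group (n = 8) from Glucagon-Venus mice of 3 months. RIP-DTR places the toxin receptor under an insulin promoter, so that the toxin kills beta-cells, and the Glucagon-rtTA and TetO-Cre pair switches on Pdx1, a transcription factor of beta-cells, in glucagon-producing cells. Pdx1 and control alpha-cells carried different reporters, and only the Pdx1 groups carried TetO-Cre and Glucagon-rtTA. These differences and Pdx1 cannot be told apart. No group received the toxin without RIP-DTR or carried RIP-DTR without the toxin. Alpha Pdx1 DT and alpha Pdx1 therefore differ in both, and the beta and alpha groups also differ in reporter line. The comparisons address how alpha-cells change when beta-cells are lost, when they are made to express Pdx1, and when both occur.

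Complex I takes electrons from NADH, complex III passes them from ubiquinol to cytochrome c, complex IV hands them to oxygen, and ATP synthase uses the resulting proton gradient to make ATP. In beta-cells the ATP made this way closes potassium channels and triggers insulin release, and in alpha-cells mitochondrial ATP also takes part in the control of glucagon release. Several subunits of complex IV exist as tissue isoforms, and 3 genes, Atp5g1, Atp5g2 and Atp5g3, encode the same mature subunit c of the ATP synthase rotor. The subunits encoded in the mitochondrial genome were not analysed here.

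Values are quantile-normalized log2 values, on which a difference of 1 is a doubling. Read numbers were not in the table, so depth is unknown. A ± gives the standard error of a log2 fold change unless marked SD, and p-values come from limma, adjusted over the 16633 genes tested, with a threshold of 0.05. The labels do not say that libraries came from separate animals, so p-values measure only the spread between these samples. In such bulk samples fewer cells of a type and less RNA per cell cannot be told apart.

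Pdx1 itself was at 11.87, 12.59, 11.53, 11.64, 5.51 and 11.66 in the alpha Pdx1 DT libraries and at 11.60, 10.78, 11.83, 11.65 and 8.61 in the alpha Pdx1 libraries. It ran between 3.71 and 6.70 in alpha DT, between 10.45 and 11.77 in beta, and between 3.66 and 11.23 in alpha, with a median of 5.03. The library labelled alpha Pdx1 DT 5 had the lowest Pdx1 of its group, and it was nearly a copy of the library labelled alpha 4: their correlation over genes was 0.993, against a median of 0.939 between libraries of 1 group, and the mean absolute difference of the 82 members was 0.0890, against 0.197 in the closest pair of 1 group. The library labelled alpha 8 had Pdx1 at 11.23, and the libraries labelled beta 1 and beta 5 had Gcg (glucagon) at the highest value of the table. Results were also computed without these libraries and the library labelled alpha Pdx1 5, 5 in all, and alpha Pdx1 DT 5 is left out alone where it matters. Of the defining markers fixed for each cell type, 8 of 8 alpha-cell markers fell and 9 of 9 beta-cell markers rose in beta against alpha. Of all genes 17.6% fell and 16.9% rose. The direction of the glucagon and insulin genes was set by the reporters used for sorting, and these counts over groups do not check single libraries.

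Across comparisons, between 0 and 16 of the 82 members passed the threshold. In beta against alpha 16 members were called, or 19.5% of those tested, where 34.5% of all genes were. Of these members 4 rose and 12 fell, where 16.9% of all genes rose and 17.6% fell. The same number, 16 or 19.5%, was called in alpha Pdx1 DT against alpha Pdx1, where 9.22% of all genes were. There too 4 members rose and 12 fell, where 4.83% of all genes rose and 4.39% fell. Against alpha, alpha Pdx1 DT had 0 members that rose and 7 that fell, 8.5% of members beside 7.81% of all genes (4.06% rose and 3.75% fell), a share near the background. Without the library labelled alpha Pdx1 DT 5, 5 members rose and 16 fell in this comparison (25.6% called, beside 21.0% of all genes), and without alpha Pdx1 DT 6, 1 was called (beside 1.85% of all genes). In alpha Pdx1 DT against alpha Pdx1, 5 rose and 16 fell without alpha Pdx1 DT 5 (15.4% of all genes called), 9 were called without alpha Pdx1 DT 6 (4.92% of all genes) and 8 without alpha Pdx1 5 (3.38% of all genes). In alpha DT against alpha, which differ in the toxin and in RIP-DTR, 2 members fell and 0 rose, beside 3.26% of all genes (1.57% rose and 1.70% fell). In alpha Pdx1 against alpha, which differ in the transgenes named above, 1 fell and 0 rose, beside 4.33% of all genes (2.36% rose and 1.98% fell). Between alpha Pdx1 DT and alpha DT limma called 0 members, beside 2.10% of all genes (1.78% rose and 0.319% fell), and 1 member had an unadjusted p under 0.05. Against beta, alpha Pdx1 DT had 2 members that rose and 11 that fell, 15.9% of members, where 26.3% of all genes were called (12.9% rose and 13.4% fell). An interaction test set the difference of alpha Pdx1 DT from alpha Pdx1 against that of alpha DT from alpha and called 0 members and 0 of all genes (0.0%) with limma, with 2 members under an unadjusted p of 0.05. The comparisons with alpha share their alpha libraries, and those of alpha Pdx1 DT share that group.

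**Figure D1:**
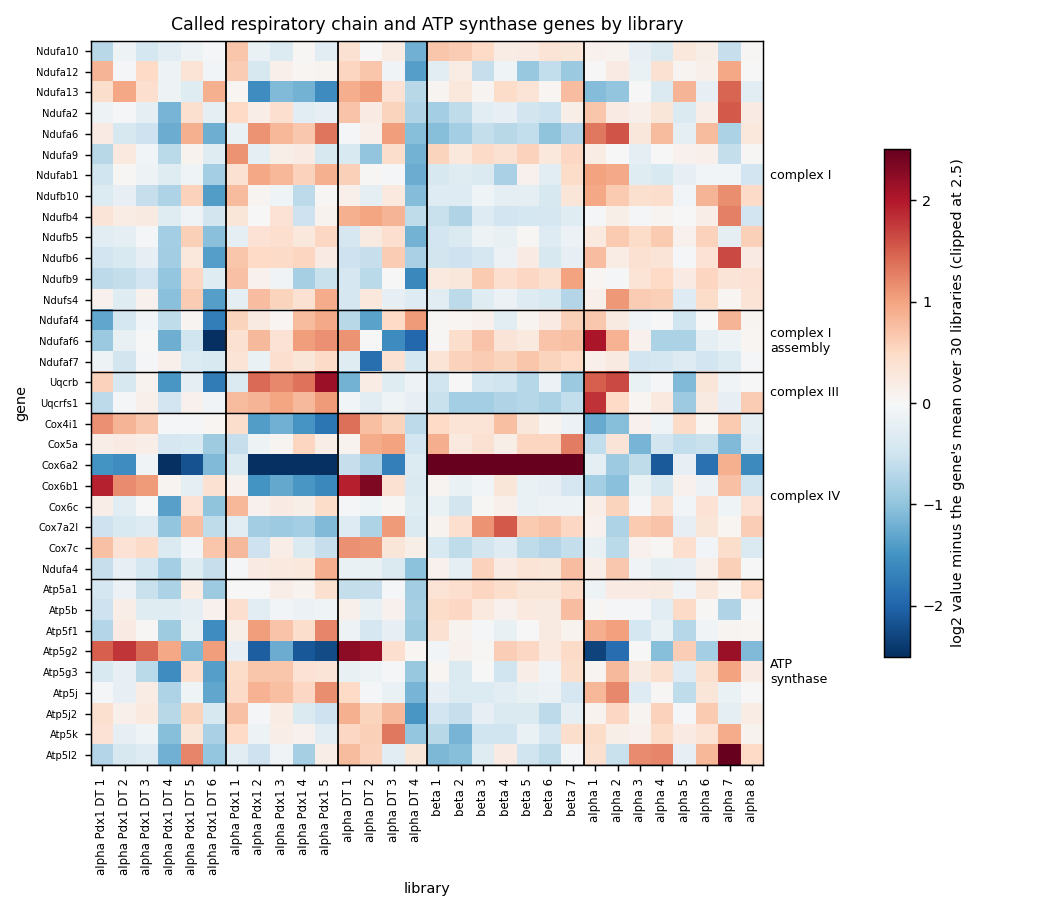
Log2 value of each of the 35 members called in at least 1 comparison, in each of 30 libraries, as the difference from the gene's mean over all libraries (blue below, red above, clipped at 2.5), with genes in rows by complex and libraries in columns by group. Cox6a2 is dark red in the 7 beta libraries alone, Atp5g2 and Cox4i1 are blue in alpha Pdx1 2 to 5 and in alpha 1 and 2, and most rows are blue in alpha DT 4. Atp5g2 is also blue in alpha Pdx1 DT 5 and in further alpha libraries.

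The median log2 fold change over the members was −0.10 in beta against alpha (all genes −0.0015), −0.11 in alpha Pdx1 DT against alpha Pdx1 (all genes −0.058), −0.21 in alpha Pdx1 DT against alpha (all genes −0.026) and −0.17 in alpha Pdx1 DT against alpha DT (all genes −0.0020). Members below and above 0 numbered 49 and 33, 44 and 38, 54 and 28, and 60 and 22 in these comparisons. The 13 complex IV genes tested all had fold changes below 0 in alpha Pdx1 DT against alpha DT, from −0.72 to −0.037, and none of them passed limma's threshold. The mean deviation of the members in a library from their overall means spread widely within groups. It ran from −0.605 to 0.187 in alpha Pdx1 DT, from −0.262 to 0.242 in alpha Pdx1, from −0.804 to 0.475 in alpha DT, from −0.0842 to 0.218 in beta and from −0.0567 to 0.442 in alpha. The groups overlapped in this summary, and the alpha DT libraries, which include the lowest, covered the widest range.

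Complex I has a core of catalytic subunits conserved from bacteria and a shell of accessory subunits. In beta against alpha 8 of 36 complex I subunits fell and 0 rose, or 22.2% called beside 34.5% of all genes. The 8 are among the 29 accessory subunits: Ndufa2, Ndufa6, Ndufa12, Ndufb4, Ndufb5, Ndufb6, Ndufb10 and Ndufs4. Ndufa6, a peripheral accessory subunit, had the largest of these differences. Its values in beta ran from 9.68 to 10.15 with a median of 10.01, and in alpha from 9.96 to 12.31 with a median of 11.29. It fell by 1.30 ± 0.33 on the log2 scale (adjusted p = 0.00219), and 1 alpha library, alpha 7, reached into the beta range. Ndufb10, a subunit of the membrane arm, had a median of 10.60 in beta (10.43 to 11.14) and of 11.41 in alpha (10.76 to 11.998), and it fell by 0.80 ± 0.23 (adjusted p = 0.00703). Ndufs4, an accessory subunit needed for the stability of the NADH-oxidizing arm, had a median of 10.77 in beta (10.35 to 10.95) and of 11.49 in alpha (10.76 to 12.16), and it fell by 0.77 ± 0.23 (adjusted p = 0.00878). Both genes overlapped between the groups only at the top of beta and the bottom of alpha. The median log2 fold change over the 36 subunits was −0.07, with 21 below and 15 above 0.

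The complex I subunits called among the alpha-cell groups were also of the accessory shell, which makes up 29 of the 36 subunits. Ndufa13 rose while Ndufab1 and Ndufb6 fell in alpha Pdx1 DT against alpha Pdx1. These were 3 of 36 subunits, or 8.33% beside 9.22% of all genes, a share near the background. Ndufa13, also known as GRIM-19, was at 11.01, 11.52, 10.98, 10.42, 10.25 and 11.45 in alpha Pdx1 DT, against 10.62, 9.01, 9.44, 9.37 and 8.98 in alpha Pdx1. Only alpha Pdx1 1 reached the range of the toxin-treated libraries, and the log2 fold change was 1.45 ± 0.37 (adjusted p = 0.0144). Ndufab1, the mitochondrial acyl carrier protein that is also a subunit of complex I, was at 8.65, 9.17, 9.02, 8.84, 9.04 and 8.29 in alpha Pdx1 DT, against 9.52, 10.12, 9.98, 9.72 and 10.02 in alpha Pdx1. The groups did not overlap, and it fell by 1.04 ± 0.29 (adjusted p = 0.0243). Ndufb6, a membrane-arm subunit, had a median of 10.32 in alpha Pdx1 DT (9.37 to 11.02), against values of 11.44, 11.25, 11.23, 11.28 and 10.96 in alpha Pdx1, and it fell by 0.99 ± 0.26 (adjusted p = 0.0196). The single overlap was the library labelled alpha Pdx1 DT 5, the highest of its group.

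Against alpha without Pdx1 or toxin, alpha Pdx1 DT libraries had lower Ndufb10, Ndufb6 and Ndufb5. That was 8.33% of the 36 subunits, beside 7.81% of all genes. Ndufb10 had a median of 10.39 in alpha Pdx1 DT (9.44 to 11.41) and of 11.41 in alpha, and it fell by 1.06 ± 0.24 (adjusted p = 0.0116). Ndufb6, at the alpha Pdx1 DT values above against an alpha median of 11.10 (10.70 to 12.40), fell by 0.99 ± 0.24 (adjusted p = 0.0139). Ndufb5 had a median of 11.24 in alpha Pdx1 DT (10.46 to 12.09) and of 12.02 in alpha (11.26 to 12.15), and it fell by 0.69 ± 0.22 (adjusted p = 0.0475), a call that held in 9 of 30 fits that left out 1 library and in 6 of 9 other fits. With the groups alpha Pdx1 DT and alpha fitted alone, limma called 0 members and 0 of all genes. In alpha DT the called subunit was Ndufb9, which carries an LYR motif that binds the acyl carrier protein. Ndufb9 was at 10.67, 10.40, 11.10 and 9.48 in alpha DT, against a median of 11.42 in alpha (11.04 to 11.62), and it fell by 0.95 ± 0.26 (adjusted p = 0.0351). Its call was lost without alpha DT 4, the lowest library, where it fell by 0.64 (adjusted p = 0.12), and without alpha DT 2 or alpha 4, 6 or 8. Ndufb9 in alpha Pdx1 DT against beta fell by 0.91 ± 0.23 (adjusted p = 0.00328), Ndufa10 by 0.69 ± 0.20 (adjusted p = 0.0117) and Ndufa9 by 0.67 ± 0.22 (adjusted p = 0.0233), while Ndufa12 was 0.71 ± 0.26 higher (adjusted p = 0.0419). Ndufa9 and Ndufa10 did not overlap between these groups, at 10.54 to 11.46 for Ndufa9 in alpha Pdx1 DT and 11.48 to 11.80 in beta. The 7 core subunits passed the threshold in 0 comparisons.

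The assembly factors build complex I and do not stay in it. Ndufaf7, a methyltransferase, was higher in beta, at 9.32 to 9.68 with a median of 9.55, than in alpha, at 8.51 to 9.22 with a median of 8.66. The groups did not overlap and the log2 fold change was 0.77 ± 0.21 (adjusted p = 0.00505). The alpha Pdx1 DT libraries had it at 8.54 to 9.12 with a median of 8.75, below every beta library, and it fell against beta by 0.75 ± 0.23 (adjusted p = 0.0133). Ndufaf6, which acts early in assembly, was at 6.61, 7.36, 7.54, 6.33, 7.05 and 4.68 in alpha Pdx1 DT, against 7.93, 8.35, 7.90, 8.59 and 8.69 in alpha Pdx1. These groups did not overlap, and it fell by 1.70 ± 0.49 (adjusted p = 0.0275). Against beta, at 7.57 to 8.29, it fell by 1.41 ± 0.45 (adjusted p = 0.0179). Ndufaf4 had a median of 8.60 in alpha Pdx1 DT (7.41 to 9.20), against values of 9.70, 9.37, 9.18, 9.94 and 10.09 in alpha Pdx1, and it fell by 1.20 ± 0.33 (adjusted p = 0.0234). The calls of Ndufaf6 and Ndufaf4 against alpha Pdx1, 28.6% of 7 factors beside 9.22% of all genes, held in 25 and 26 of 30 fits that left out 1 library. In alpha Pdx1 DT 6 Ndufaf6 lay under the filter value of 5. The mean deviation of the 7 factors was −1.59 in that library and −0.460 to 0.0801 in the rest of its group. In alpha DT against alpha 7 of 7 factors had fold changes below 0, from −0.92 to −0.20, where the median of all genes was −0.062. Of these factors 0 passed the threshold by limma, beside 3.26% of all genes, with 1 under an unadjusted p of 0.05. Their mean deviation was −0.0340, −0.733, −0.146 and −0.773 in alpha DT 1 to 4, so it was lowest in alpha DT 2 and 4. The factors are not independent replicates.

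In complex III Uqcrfs1, which encodes the Rieske iron-sulfur protein that accepts electrons from ubiquinol, was low in beta and high in alpha Pdx1. Its values in alpha Pdx1 DT were 10.37, 10.98, 11.15, 10.53, 11.12 and 10.93, against 11.80, 11.86, 12.001, 11.82 and 12.08 in alpha Pdx1. These groups did not overlap, and it fell by 1.07 ± 0.26 (adjusted p = 0.0103). In alpha DT it was at 10.95, 10.72, 10.91 and 10.80. In beta it ran from 10.17 to 10.46 with a median of 10.26, against 10.10 to 12.81 with a median of 11.24 in alpha, and it fell by 1.02 ± 0.22 (adjusted p = 0.000388). Alpha 5 was the only alpha library inside or below the beta range. Uqcrb, the ubiquinone-binding accessory subunit, was at 11.21, 10.23, 10.72, 9.18, 10.42 and 8.89 in alpha Pdx1 DT, against 10.28, 12.05, 11.83, 11.99 and 12.78 in alpha Pdx1. It fell by 1.68 ± 0.44 (adjusted p = 0.0179), with alpha Pdx1 1 inside the toxin-treated range, and lost the call without alpha Pdx1 5 (−1.43, adjusted p = 0.0694), without alpha Pdx1 DT 6 (−1.43, adjusted p = 0.0508) and without the 5 doubted libraries (−1.49, adjusted p = 0.0632). The other 6 subunits of complex III, Uqcrc1, Uqcrc2, Uqcrh, Uqcrq, Uqcr10 and Uqcr11, passed the threshold in 0 comparisons. In alpha Pdx1 DT against alpha Pdx1 2 of 8 subunits were thus called (25%), beside 9.22% of all genes.

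The clearest difference between the cell types was in complex IV. Cox6a2 encodes the form of subunit 6a known as the heart and skeletal muscle isoform and lies on chromosome 7 (GRCm38, 128205435 to 128206387, minus strand). Its values in beta were between 8.19 and 11.30 with a median of 9.71, and in alpha between 2.93 and 5.92 with a median of 4.26. No library of one group entered the range of the other, and the log2 fold change was 5.45 ± 0.52 (adjusted p = 4.17e-10). Every beta library was above the filter value of 5, and the alpha median was under it. Cox6a2 was therefore tested mainly through the group where it is high, so its passing the filter is no separate support. The libraries of alpha-cells with and without Pdx1 all stayed below the beta range. Its values were 3.52, 3.47, 4.94, 1.97, 2.84 and 3.92 in alpha Pdx1 DT, 4.67, 1.28, 1.93, 2.21 and 2.25 in alpha Pdx1, and 4.45, 4.22, 3.32 and 4.68 in alpha DT. Against beta it was 6.21 ± 0.56 lower in alpha Pdx1 DT (log2 fold change −6.21, adjusted p = 2.51e-10), with no overlap. The alpha-cell groups overlapped with one another, and the largest difference among their means, alpha Pdx1 against alpha, was −1.73 ± 0.57 (adjusted p = 0.0772). That comparison passed the threshold without alpha Pdx1 1 (−2.28, adjusted p = 0.0159) and with library weights (−1.84, adjusted p = 0.0115). Every alpha Pdx1 value and the alpha median lay under the filter value of 5, and depth is unknown. This difference among low values is therefore uncertain. The other isoform, Cox6a1 (chromosome 5, 115345642 to 115348981, minus strand), had means of 12.18 ± 0.16, 11.87 ± 0.49, 12.26 ± 0.91, 11.74 ± 0.30 and 12.28 ± 0.47 (SD) in alpha Pdx1 DT, alpha Pdx1, alpha DT, beta and alpha, and it passed the threshold in 0 comparisons.

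**Figure D2:**
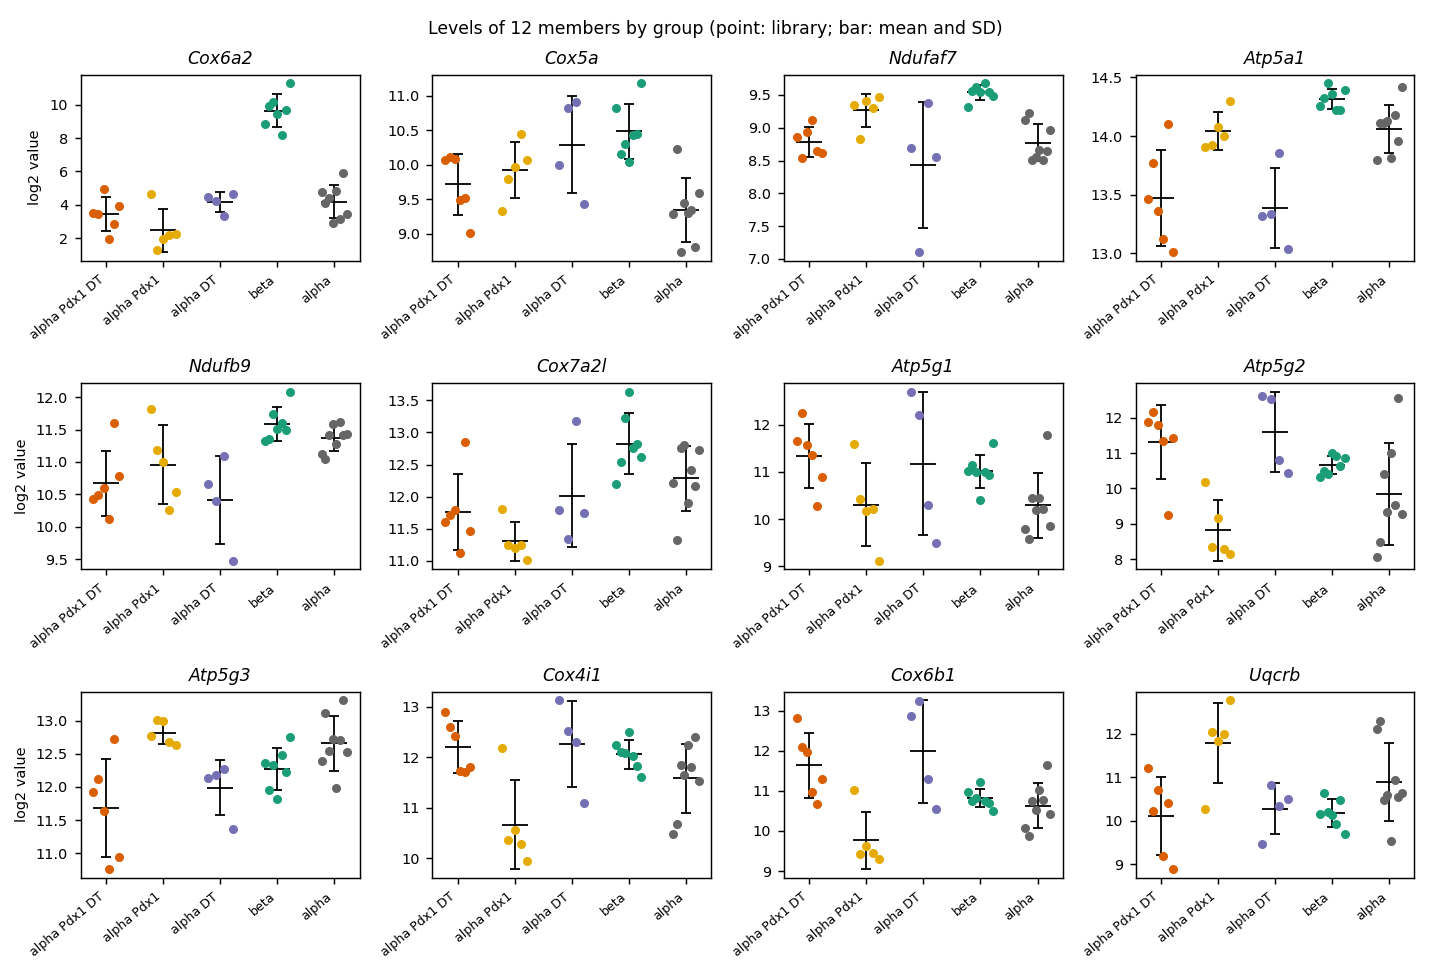
Log2 values of 12 members by group, 1 point per library with the mean and SD as bars. Cox6a2 separates the 7 beta libraries (8.19 to 11.30) from all others (at most 5.92), and Atp5g2, Cox4i1 and Cox6b1 are low in 4 of 5 alpha Pdx1 libraries where Uqcrb is high. Atp5g3 is high in all 5.

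Cox5a, a nuclear subunit that binds thyroid hormone metabolites and contacts the matrix side of the enzyme, also rose in beta. It ran from 10.04 to 11.19 in beta with a median of 10.44, and from 8.73 to 10.23 in alpha with a median of 9.32, and the log2 fold change was 1.14 ± 0.24 (adjusted p = 0.000253). Alpha 2 was the one alpha library inside the beta range. Its median in alpha Pdx1 DT was 9.80 (9.01 to 10.12), and it fell against beta by 0.77 ± 0.25 (adjusted p = 0.0227). Cox7a2l was at 11.81, 11.24, 11.20, 11.25 and 11.01 in alpha Pdx1, against a median of 12.31 in alpha (11.33 to 12.81). It fell by 0.98 ± 0.28 (adjusted p = 0.0394), the only member called in this comparison. The call was lost without any of alpha 3, 4, 6, 7 or 8 or alpha Pdx1 2, 3, 4 or 5, and without the 5 doubted libraries (−0.85, adjusted p = 0.0659). Cox7a2l in alpha Pdx1 DT, at a median of 11.66 (11.12 to 12.86), was also below beta, at a median of 12.75 (12.20 to 13.64), and fell by 1.07 ± 0.28 (adjusted p = 0.00392).

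Of the 13 complex IV genes tested 2 rose and 2 fell in alpha Pdx1 DT against alpha Pdx1. That was 30.8% called, beside 9.22% of all genes (4.83% rose and 4.39% fell). Cox4i1, the ubiquitous form of the subunit through which ATP inhibits the enzyme, was at 12.90, 12.60, 12.42, 11.73, 11.71 and 11.81 in alpha Pdx1 DT, against 12.19, 10.36, 10.56, 10.28 and 9.94 in alpha Pdx1. Cox6b1, which lies where the monomers of the dimeric enzyme meet, was at 12.83, 12.10, 11.98, 10.97, 10.66 and 11.30 in alpha Pdx1 DT, against 11.03, 9.42, 9.62, 9.45 and 9.30 in alpha Pdx1. For both genes alpha Pdx1 1 lay inside the range of the toxin-treated libraries and the other 4 alpha Pdx1 libraries lay below it. The log2 fold changes were 1.53 ± 0.36 for Cox4i1 (adjusted p = 0.0104) and 1.88 ± 0.40 for Cox6b1 (adjusted p = 0.00710). Ndufa4 was at 10.72, 11.09, 10.85, 10.44, 10.99 and 10.72 in alpha Pdx1 DT, against 11.24, 11.49, 11.53, 11.55 and 12.20 in alpha Pdx1, with no overlap, and it fell by 0.80 ± 0.20 (adjusted p = 0.0141). Ndufa4 also fell in alpha Pdx1 DT against beta (0.78 ± 0.19 lower, log2 fold change −0.78, adjusted p = 0.00163) and against alpha (log2 fold change −0.62 ± 0.18, adjusted p = 0.0322). Cox6c fell by 0.70 ± 0.22 (adjusted p = 0.0400), and its call held in 3 of 9 other fits. Cox7c was 0.84 ± 0.22 higher in alpha Pdx1 DT than in beta (adjusted p = 0.00449), at medians of 11.58 and 10.57.

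The remaining isoform genes of complex IV did not pass the threshold. Cox7a2, the widely expressed form of subunit 7a, had means from 11.36 ± 0.17 in beta to 11.90 ± 0.91 in alpha DT (SD). Cox7b had means from 11.46 ± 0.26 in beta to 12.17 ± 0.26 in alpha Pdx1, and Cox8a from 11.56 ± 0.30 in alpha Pdx1 to 12.03 ± 0.62 in alpha DT. Cox6b2, the testis form of subunit 6b, ran from 0.76 to 5.46 and Cox7a1, the muscle form of subunit 7a, from 0.76 to 5.29 over the 30 libraries, and neither was tested. The muscle form Cox7a1 had a median of 3.79 in beta (1.94 to 5.29) and of 2.60 in alpha (0.76 to 4.92).

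ATP synthase has a catalytic F1 head, a rotor ring in the membrane and a stalk that holds them together. Atp5a1, the alpha subunit of the F1 head, was low in both toxin-treated groups. Its values were 13.47, 13.77, 13.36, 13.12, 14.10 and 13.01 in alpha Pdx1 DT and 13.91, 13.92, 14.08, 14 and 14.30 in alpha Pdx1. They were 13.32, 13.34, 13.85 and 13.04 in alpha DT, 14.22 to 14.45 in beta (median 14.32) and 13.79 to 14.42 in alpha (median 14.11). The only toxin-treated library within the alpha Pdx1 range was the one labelled alpha Pdx1 DT 5, and alpha DT 3 alone lay within the alpha range among the alpha DT libraries. It fell by 0.57 ± 0.16 in alpha Pdx1 DT against alpha Pdx1 (adjusted p = 0.0270), by 0.59 ± 0.15 against alpha (adjusted p = 0.0152) and by 0.85 ± 0.15 against beta (adjusted p = 4.98e-05, no overlap). In alpha DT against alpha it fell by 0.68 ± 0.17 (adjusted p = 0.0198), and its call there was lost without alpha DT 2 (−0.66, adjusted p = 0.0522) and when the 2 groups were fitted alone (−0.68, adjusted p = 0.116). Atp5b, the catalytic beta subunit, had medians of 14.50 in alpha Pdx1 DT (14.24 to 14.92), 15.00 in beta (14.86 to 15.54) and 14.75 in alpha (14.02 to 15.24). It rose by 0.44 ± 0.16 in beta against alpha (adjusted p = 0.0315) and fell by 0.55 ± 0.17 in alpha Pdx1 DT against beta (adjusted p = 0.0159).

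The 3 subunit c genes went in different directions. Atp5g1 lies on chromosome 11 (GRCm38, 96068852 to 96075670), Atp5g2 on chromosome 15 (102662864 to 102672352) and Atp5g3 on chromosome 2 (73908447 to 73911326), all on the minus strand. Atp5g2 was at 11.88, 12.17, 11.80, 11.35, 9.25 and 11.43 in alpha Pdx1 DT, against 10.18, 8.34, 9.15, 8.27 and 8.14 in alpha Pdx1. It rose by 2.496 ± 0.61 (adjusted p = 0.0140), and the library labelled alpha Pdx1 DT 5 was the only toxin-treated one within the alpha Pdx1 range. Atp5g3 was at 11.93, 12.11, 11.64, 10.76, 12.72 and 10.94 in alpha Pdx1 DT, against 12.77, 13.01, 12.997, 12.68 and 12.64 in alpha Pdx1. It fell by 1.13 ± 0.26 (adjusted p = 0.00833), again with alpha Pdx1 DT 5 as the only overlap, and it fell by 0.98 ± 0.23 against alpha (adjusted p = 0.0128). Atp5g1 was at 11.64, 12.24, 11.58, 11.36, 10.27 and 10.89 in alpha Pdx1 DT, against 11.58, 10.43, 10.18, 10.22 and 9.12 in alpha Pdx1, a difference of 1.02 ± 0.46 that did not pass the threshold (adjusted p = 0.147). In alpha DT Atp5g2 was at 12.62, 12.54, 10.82 and 10.44 and in alpha at a median of 9.43 (8.07 to 12.54), which differed by 1.77 ± 0.62 (adjusted p = 0.104). Without the library labelled alpha Pdx1 DT 5, Atp5g2 was 1.89 higher in alpha Pdx1 DT than in alpha (adjusted p = 0.0128), and without alpha 7 it was 1.87 higher (adjusted p = 0.0214), where with all libraries it was 1.48 higher (adjusted p = 0.0849). The alpha range of Atp5g2 covered almost all values of the other groups.

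Of the other ATP synthase subunits, 2 of the stalk fell in alpha Pdx1 DT against alpha Pdx1. With those above, 5 of 16 ATP synthase genes were called there (31.25%), beside 9.22% of all genes. Atp5f1, subunit b of the peripheral stalk, had a median of 10.89 (9.79 to 11.55) in alpha Pdx1 DT, against values of 11.50, 12.40, 12.06, 11.80 and 12.58 in alpha Pdx1, and it fell by 1.24 ± 0.28 (adjusted p = 0.00814). Atp5j, coupling factor 6, was at 11.51, 11.34, 11.72, 10.76, 11.42 and 10.24 in alpha Pdx1 DT, against 12.01, 12.42, 12.29, 12.06 and 12.71 in alpha Pdx1. It did not overlap and fell by 1.13 ± 0.28 (adjusted p = 0.0115). In beta against alpha Atp5k, subunit e, which takes part in dimer formation, fell by 0.77 ± 0.25 (adjusted p = 0.0161), Atp5j2, subunit f, by 0.64 ± 0.25 (adjusted p = 0.0455, held in 15 of 30 fits that left out 1 library) and the uncertain Atp5l2 by 1.25 ± 0.35 (adjusted p = 0.00567). Atp5l2 also fell by 1.15 ± 0.36 in alpha Pdx1 DT against alpha (adjusted p = 0.0471), a call that held in 10 of 30 fits that left out 1 library and in 5 of 9 other fits. Atp5s and Atp5sl passed the threshold in 0 comparisons.

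**Figure D3:**
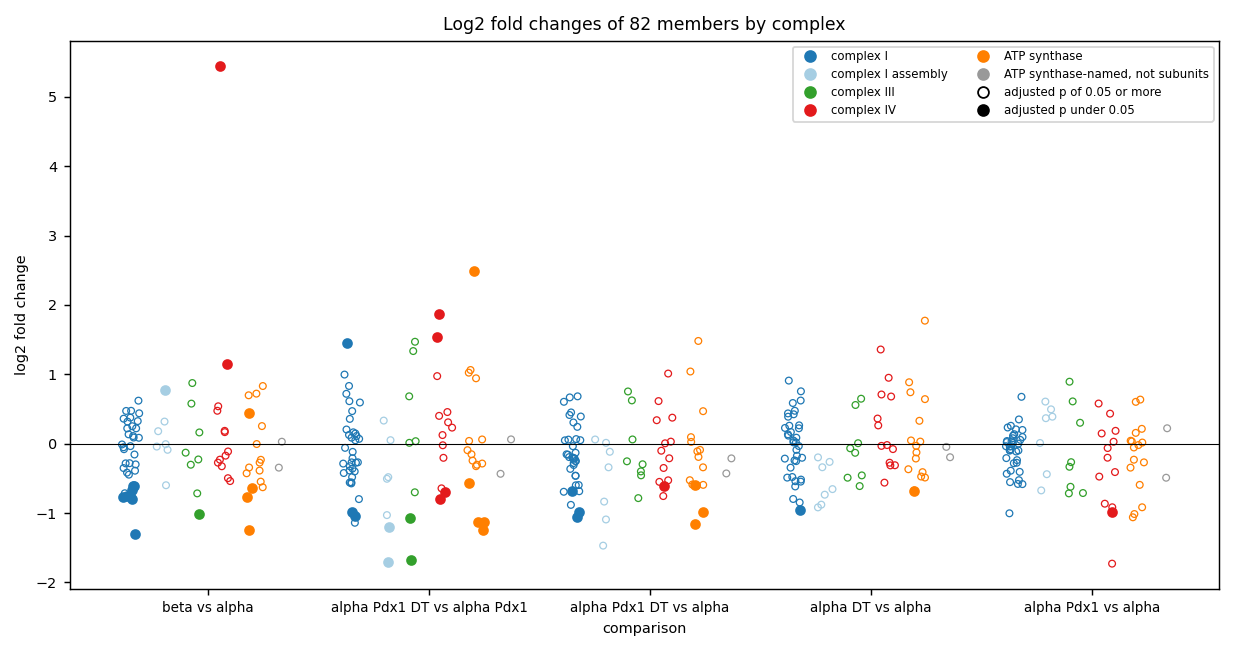
Log2 fold changes of the 82 members in 5 comparisons, 1 point per gene, coloured by complex and filled where the adjusted p is under 0.05. Filled points are mostly below 0, with Cox6a2 at 5.45 in beta against alpha as the farthest point and Atp5g2 at 2.496 the highest in alpha Pdx1 DT against alpha Pdx1.

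Of the 16 members called between alpha Pdx1 DT and alpha Pdx1, 5 that were chosen after their values were seen shared a division among libraries that was not that of the labels alone. Atp5g2, Cox4i1, Cox6b1 and Ndufa13 were low, and Uqcrb was high, in alpha Pdx1 2 to 5 and also in alpha 1 and 2, while alpha Pdx1 1 lay above the other alpha Pdx1 libraries in these 4 genes and below them in Uqcrb. Atp5g2 was not confined to this division. It was also low in alpha Pdx1 DT 5, at 9.25, and its alpha median lay within the alpha Pdx1 range. The ribosomal RNA gene Rn18s-rs5 moved with these genes, though not with Atp5g2 in alpha Pdx1 DT 5. It was at 19.87 or above in alpha Pdx1 DT, at 18.27, 17.09, 17.31, 16.98 and 16.90 in alpha Pdx1, at 19.27 to 20.54 in alpha DT, at 19.27 to 19.87 in beta and at 17.68 to 20.54 in alpha, with 17.68 and 17.92 in alpha 1 and 2. Its values did not overlap between alpha Pdx1 DT and alpha Pdx1, so Rn18s-rs5 and the group cannot be told apart there. With it as a covariate limma called 0 members and 0 of all genes in that comparison, with 758 genes under an unadjusted p of 0.05. In the interaction test the members just described passed no threshold, with 0.72 ± 0.87 for Atp5g2 (adjusted p = 0.827) and 0.85 ± 0.52 for Cox4i1 (adjusted p = 0.629), so their difference between alpha Pdx1 DT and alpha Pdx1 was not shown to differ from that between alpha DT and alpha.

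Transcript base composition also moved with the fold changes. The 4 members that rose in alpha Pdx1 DT against alpha Pdx1 had a median GC content of 59.2% in their longest coding transcript, the 12 that fell 48.5% and the 66 not called 50.8%. Spearman's rank correlation between fold change and GC content was 0.388 over the 82 members and 0.274 over all genes with a value. In alpha Pdx1 against alpha the correlation was −0.509 over the members and −0.229 over all genes, and in beta against alpha 0.145 and 0.0942. These correlations run across genes of the same libraries, which are not independent replicates. After a smooth function of GC content was subtracted within each library, 16 members were called in alpha Pdx1 DT against alpha Pdx1 (beside 8.52% of all genes), 14 of them shared with the 16 above, and 22 in beta against alpha (beside 36.1%), 16 of them shared.

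**Figure D4:**
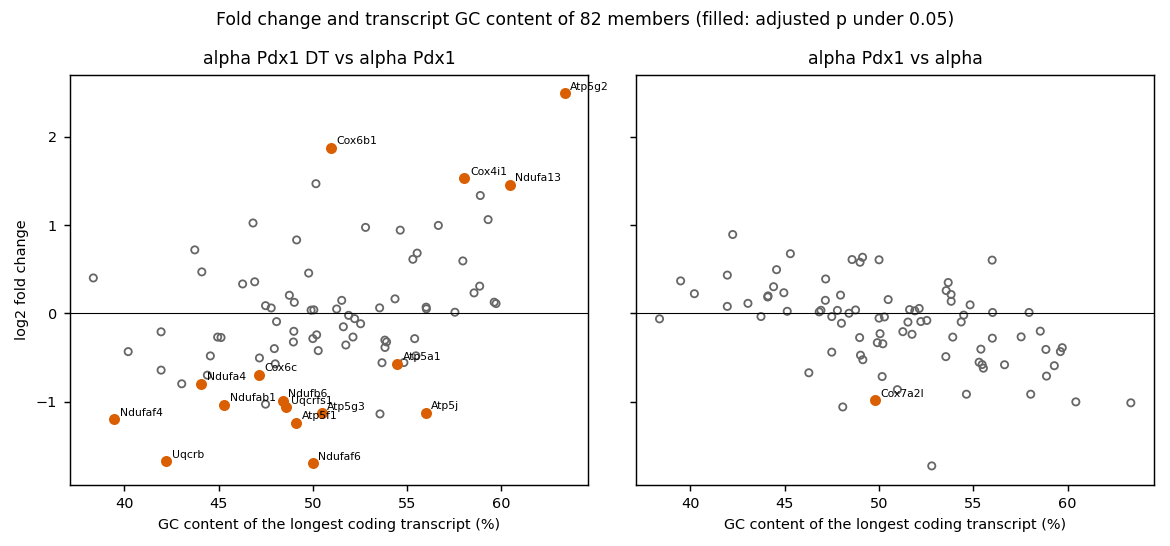
Log2 fold change of the 82 members against the GC content of the longest coding transcript in percent, in alpha Pdx1 DT against alpha Pdx1 (left) and in alpha Pdx1 against alpha (right), filled and named where the adjusted p is under 0.05. The rank correlation is 0.388 on the left and −0.509 on the right, and Atp5g2 and Ndufa13, which rose on the left, lie at the GC-rich end.

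Markers of other cells also differed between groups. The mean level of 9 leukocyte markers per library ran from 5.06 to 11.29 in alpha Pdx1 DT, from 4.62 to 5.84 in alpha Pdx1, from 7.87 to 11.50 in alpha DT, from 6.75 to 10.93 in beta and from 4.89 to 7.71 in alpha. Of these 9, 3 rose in alpha Pdx1 DT against alpha Pdx1 (33.3%, where 4.83% of all genes rose), 4 in alpha DT against alpha (44.4%, where 1.57% did) and 2 in beta against alpha (22.2%, where 16.9% did). In beta against alpha 2 of 4 delta- and PP-cell markers and 2 of 4 mesenchymal and endothelial markers fell, where 17.6% of all genes did. In each of these lists 1 marker had a fold change above 0, which was not called. The mean of 9 acinar markers ran from 6.44 to 14.84 in alpha Pdx1 DT, from 4.26 to 11.54 in alpha Pdx1, from 8.14 to 14.78 in alpha DT, from 6.998 to 15.10 in beta and from 6.80 to 13.54 in alpha, and 0 of 9 passed the threshold in these comparisons. No marker of either list was at the lowest value of the table in all libraries of a group. Their part in the fold changes of the respiratory chain genes was not tested.

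Other mitochondrial genes were read from lists chosen for their role, beside 16.9% of all genes that rose and 17.6% that fell in beta against alpha. Of the 4 subunits of complex II, which feeds electrons from succinate, 3 rose in beta against alpha: Sdhd by 0.81 ± 0.22 (adjusted p = 0.00373), Sdha by 0.49 ± 0.13 (adjusted p = 0.00330) and Sdhc by 0.46 ± 0.18 (adjusted p = 0.0396). Cyc1, the cytochrome c1 of complex III outside the naming rule, rose by 0.64 ± 0.21 (adjusted p = 0.0165). Of 19 carrier, import and chaperone genes 6 rose and 0 fell (31.6% called, beside 34.5% of all genes), among them Vdac1, the outer membrane channel, by 1.11 ± 0.22 (adjusted p = 0.000197). Of 13 citrate cycle genes 2 rose (15.4%), Idh2 by 0.69 ± 0.19 (adjusted p = 0.00439) and Ogdh by 0.45 ± 0.14 (adjusted p = 0.0123). Of 14 regulators of mitochondrial biogenesis 2 fell, Ppargc1a, which encodes the coactivator PGC-1alpha, by 1.16 ± 0.30 (adjusted p = 0.00271) and Esrra by 0.62 ± 0.21 (adjusted p = 0.0241). Atpif1, the inhibitor of ATP synthase, fell by 0.92 ± 0.25 (adjusted p = 0.00457).

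Of 22 assembly factors of complex IV 2 rose and 4 fell in beta against alpha, or 27.3% called beside 34.5% of all genes. Higd1a, a hypoxia-inducible protein that binds complex IV, had a median of 5.80 in beta (5.28 to 9.90) and of 12.32 in alpha (12.04 to 12.88), and it fell by 5.47 ± 0.54 (adjusted p = 7.80e-09), with no overlap. Higd1a in alpha Pdx1 DT had a median of 11.60 (11.46 to 12.67) and was 4.89 ± 0.58 higher than in beta (adjusted p = 3.05e-07). For both Cox6a2 and Higd1a every alpha Pdx1 DT library lay outside the beta range, on the side of alpha. Complex II was lower in alpha Pdx1 DT than in beta for 2 of 4 subunits, as were Cycs, cytochrome c itself (log2 fold change −0.79 ± 0.24, adjusted p = 0.0123), Cyc1 (log2 fold change −0.75 ± 0.23, adjusted p = 0.0115) and 5 of 13 citrate cycle genes, beside 13.4% of all genes that fell.

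In alpha Pdx1 DT against alpha Pdx1, 4 of 19 carrier, import and chaperone genes (21.1%), 3 of 22 assembly factors of complex IV (13.6%) and 1 of 13 citrate cycle genes (7.69%) were called, beside 9.22% of all genes. Coa6, a copper chaperone of complex IV assembly, fell by 1.53 ± 0.33 (adjusted p = 0.00718), the citrate cycle enzyme gene Fh1 fell by 1.49 ± 0.41 (adjusted p = 0.0234) and Tfb1m, a methyltransferase of the mitochondrial ribosome, fell by 1.21 ± 0.33 (adjusted p = 0.0214). The carriers Slc25a5, which exchanges ADP and ATP, and Slc25a3, which imports phosphate, fell by 0.78 ± 0.24 (adjusted p = 0.0384) and 0.71 ± 0.21 (adjusted p = 0.0296), and Ucp2, an uncoupling protein homolog, rose by 1.03 ± 0.25 (adjusted p = 0.0107). In alpha DT against alpha Sdhd rose by 0.96 ± 0.26 (adjusted p = 0.0331) and Phb2 and Dlst fell. In alpha Pdx1 against alpha 0 of the 19 carrier, import and chaperone genes and 0 of the 13 citrate cycle genes passed the threshold. Under an unadjusted p of 0.05 they numbered 0 and 1. Of all genes 4.33% were called there, so 0 calls in lists this small lie near the background.

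Many respiratory chain promoters hold sites for NRF1 and for factors of the ETS family, which are known to drive these genes. The 250 bases before each start site in RefSeq (GRCm38.p6) were searched on both strands, with 71 of 84 members matched to an entry. The letters were the palindrome GCGCA joined to TGCGC (NRF1), CCGGAAG (ETS) and AAGATGGCG (YY1). A gene counted if any of its start sites had a match, over 77 start sites for the 71 members. The NRF1 letters were in 5 of 71 members, or 7.04%, against 0.877% of 27025 genes, and the ETS letters in 12 of 71, or 16.9%, against 7.83%. The YY1 letters were in 2 of 71, or 2.82%, against 0.710%. The 27025 are all RefSeq genes with an entry and not the 16633 genes tested here, so expressed genes alone were not the background. Members with the NRF1 letters did not move together: Atp5g2 rose and Ndufaf4 fell in alpha Pdx1 DT against alpha Pdx1, Atp5k fell in beta against alpha, and Cox6a1 and Ndufa11 passed no threshold. The 5 NRF1 matches, which begin 42 (Atp5g2), 50 (Atp5k), 162 (Cox6a1), 60 (Ndufa11) and 113 (Ndufaf4) bases before the start, are shown 5′ to 3′ along the gene with the motif in capitals. They are at chr15:102671070-102671099, chr5:108434430-108434459, chr5:115349101-115349130 (these on the minus strand), chr17:56717692-56717721 and chr4:24897960-24897989 (these on the plus strand).
Atp5g2: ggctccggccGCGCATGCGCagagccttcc
Atp5k: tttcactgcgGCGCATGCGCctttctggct
Cox6a1: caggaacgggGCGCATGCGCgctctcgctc
Ndufa11: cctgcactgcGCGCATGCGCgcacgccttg
Ndufaf4: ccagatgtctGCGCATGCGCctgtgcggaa

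The ETS letters are shown for the 3 members that hold them and were called in alpha Pdx1 DT against alpha Pdx1, of which Cox6b1 rose and Atp5j and Ndufb6 fell. They are at chr7:30626126-30626152, chr16:84835021-84835047 and chr4:40279637-40279663, all on the minus strand, and the capitals mark CCGGAAG or its reverse complement.
Cox6b1: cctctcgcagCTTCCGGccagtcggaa
Atp5j: gctgagggacCCGGAAGcacttaccct
Ndufb6: cgtccttgttCTTCCGGtcccctcccc
A match of letters is a description of the sequence and not a binding site, and no binding was measured here.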

How the data were processed

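RNA of sorted cells was sequenced in bulk, per the labels' protocols, and aligned with GSNAP on the GRCm38 build according to the submitters' processing notes. Not given in the sources used here are the aligner's version, the gene annotation and the read counting. Per gene and library, the authors deposited a quantile-normalized log2 value, for 17775 genes and 30 libraries, so differences of the most abundant genes reflect rank. A gene was tested if at least 4 libraries reached a value of 5, which gave 16633 genes and left out 1142. limma 3.58.1 fitted all libraries together, each group with its own mean, using trended and robust empirical Bayes variances. Two-sided p-values received Benjamini-Hochberg adjustment within each contrast, and the route was tested on simulated data. Members, lists and tests were chosen with earlier results of these data known. Named genes are up to 3 risers and 3 fallers per complex and comparison, the isoform families, and up to 3 called genes per list. Ndufa2, Ndufa12, Ndufb4 and Ndufb5 are named to complete a count, and Rn18s-rs5, Pdx1 and Gcg as checks on the libraries. GC content came from the longest coding transcript of the GENCODE annotation of GRCm38, and promoters from RefSeq. Alternatives covered the filter, the variance trend, library weights, groups fitted alone, covariates, rescaling, GC content (added after the data were seen) and leaving out libraries. Tables were made with Python 3.11.15, numpy 2.4.6 and pandas 2.3.3, and figures with matplotlib 3.10.9.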

Additional observations from a re-analysis of the deposited data

Results flagged for a closer look

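Single libraries stood far from the rest of their group in 17 of 190 checks of 38 members in 5 groups, where chance flags about 1 in 20 groups. In the library labelled alpha Pdx1 1, Atp5b was at 15.18, Cox4i1 at 12.19, Cox6b1 at 11.03, Ndufa13 at 10.62 and Cox6a2 at 4.67, each above the other 4 libraries. Ndufaf7 was low in alpha Pdx1 2 at 8.83. In alpha 7, Cox6a1 was at 13.38, Atp5k at 11.82 and Atp5g1 at 11.78, above the other alpha libraries, and Cox8a was at 10.72, below them. In alpha DT 4, Atp5g3 at 11.37, Cox6a1 at 10.90 and Atp5j2 at 9.55 were below the other 3 libraries. In beta 7, Cox6a1 at 12.38 and Ndufb10 at 11.14 were above the other beta libraries. In the library labelled alpha Pdx1 DT 5, Atp5l2 was at 11.37, above its group, and Atp5g2 at 9.25, below it. These libraries were kept.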

How the results depend on the processing

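No paired analysis was possible because the labels carry no replicate numbers shared between groups. Members called in beta against alpha numbered 43 with library weights (52.4%, beside 56.4% of all genes) and 30 when the groups were fitted alone (36.6%, beside 44.0%). In alpha DT against alpha they numbered 1 without the trend (2.95% of all genes) and 0 with the groups alone (0.397%). After removal of a GC spline they numbered 5 (4.42%). In alpha Pdx1 against alpha they numbered 0 without the trend (4.01% of all genes) and 19 with library weights (18.7%). They numbered 0 with Rn18s-rs5 as a covariate (0.685%) and 0 without the 5 doubted libraries (6.61%). In alpha Pdx1 DT against alpha Pdx1 they numbered 33 with weights (22.7% of all genes) and 0 with Rn18s-rs5, which called 0 of all genes too and cannot be told apart from the group there, and under which Atp5g2, Ndufa13 and Uqcrb reversed to −0.267, −0.194 and 0.307. In alpha Pdx1 DT against alpha they numbered 23 with weights (21.2% of all genes), 0 with the groups alone and 0 with Rn18s-rs5 (0 of all genes in both) and 18 without the 5 libraries (20.3% of all genes), and in alpha Pdx1 DT against beta 28 with weights (41.4% of all genes) and 20 with the groups alone (29.9%). Leaving out 1 library at a time gave 12 to 20 (beta against alpha), 0 to 8 (alpha DT against alpha), 0 to 4 (alpha Pdx1 against alpha), 8 to 24 (alpha Pdx1 DT against alpha Pdx1), 0 to 4 (against alpha DT), 1 to 21 (against alpha), 11 to 16 (against beta) and 0 to 0 (interaction). The lowest and highest counts in alpha DT against alpha came without alpha DT 2 (2.05% of all genes) and without alpha DT 4 (6.48%). Those in beta against alpha came without beta 2 (30.8%) and without alpha Pdx1 1 (35.0%). In alpha Pdx1 DT against alpha Pdx1 the count was 8 without alpha Pdx1 5 (3.38% of all genes) and 9 without alpha Pdx1 DT 6 (4.92%). It was 24 without alpha Pdx1 1 (12.3%). In alpha Pdx1 DT against alpha it was 21 without alpha Pdx1 DT 5 (21.0% of all genes) and 1 without alpha Pdx1 DT 6 (1.85%). It was 13 without alpha 5 (11.3%) and 11 without alpha DT 4 (9.49%). It was 4 without alpha 1 (4.89%), alpha 6 (4.61%), alpha Pdx1 DT 1 (3.07%) or alpha Pdx1 DT 4 (2.72%). Without the 5 libraries the other counts were 14 in beta against alpha (31.8% of all genes) and 2 in alpha DT against alpha (3.26%). For alpha Pdx1 DT they were 12 against alpha Pdx1 (7.65%), 0 against alpha DT (5.73%) and 11 against beta (25.5%). In the interaction 0 were called (0.0%). The cause was not tested. Over all calls of members, leaving out 1 library kept the call 1510 times and lost it 140 times, and the other alternatives kept it 420 times, lost it 70 times and reversed it 3 times. Depth is unknown, so its limit on low genes such as Cox6b2 could not be set.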
